A study of Mus musculus with 40 samples.

Results

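The comparison described here is repeated cross-fostering against unhandled control in adult DBA females, measured as messenger RNA in punches of the ventral tegmental area (VTA), a midbrain nucleus that holds dopamine neurons. It rests on 10 of the 40 libraries of the study, 5 RCF libraries and 5 control libraries, assigned by their labels of strain, sex and treatment. The comparison itself was chosen with earlier results of these data known. In repeated cross-fostering (RCF) a litter is handed to a different adoptive mother daily between postnatal days 1 and 4, and control litters were left unhandled. All mice were adults. The other 30 libraries were RCF and control groups of 5 from DBA males, C57/Bl6 females and C57/Bl6 males. Which animal or litter a library came from is not in the labels, so every p-value measures spread between libraries, which may be technical or shared within a litter. The main fit estimated this spread, and the standard errors, within the 8 groups of all 40 libraries, not in these 10 alone.

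Dopamine neurons of the VTA make dopamine with tyrosine hydroxylase (Th), load it into vesicles with Slc18a2 and take it back up with Slc6a3, and they signal reward and motivational value. Early-life stress acts on the brain through glucocorticoids, whose receptor Nr3c1 switches on genes such as Fkbp5 and Sgk1. A punch of the VTA also takes up glia, blood vessels and parts of neighbouring nuclei, so a bulk library reads both how many cells of each type it holds and how much RNA each made, and these cannot be told apart.

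Total counts ran between 22422388 and 28179071 in RCF libraries and between 22713293 and 26106269 in control libraries. The Y-linked gene Ddx3y had 0 to 0.169 CPM in RCF libraries and 0 to 0.0444 CPM in controls, and Xist, the RNA that silences one X chromosome, had 376 to 410.2 CPM in RCF libraries and 302 to 371 CPM in controls. Every RCF library thus lay above every control in Xist, which held for 1.75% of all genes tested, and Xist did not pass the test given below. Values per gene are normalised read counts relative to the library total (CPM, with edgeR's TMM factors). Levels are compared between groups for 1 gene at a time and not between genes, because CPM is not divided by transcript length. A gene passed where edgeR's quasi-likelihood test gave a Benjamini-Hochberg adjusted p under 0.05 over all 18441 genes tested. Errors written after ± are SD over 5 libraries for a level and the standard error for a log2 fold change (RCF over control).

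Both groups held 1 library that stood apart in its cell content. Control 3 carried forebrain RNA. The mean log2 CPM over 12 markers of forebrain glutamate neurons was 2.33, 2.55, 2.47, 2.36 and 2.04 in RCF libraries 1 to 5, against 2.21, 2.14, 6.33, 2.12 and 1.74 in control libraries 1 to 5. Slc17a7, the vesicular glutamate transporter of cortex and hippocampus, read 8.73, 29.0, 15.4, 14.7 and 8.65 CPM in RCF libraries 1 to 5, against 9.81, 14.1, 1312, 12.1 and 7.60 CPM in control libraries 1 to 5. Control 3 lay far above the other 9 libraries on that list, and it was the highest or lowest of the 10 libraries in 44.5% of genes, against 11.6% to 23.6% in the other 9. Its thalamus, hippocampus and striatum lists were also the highest of the controls, at 5.44, 4.78 and 4.39, and its dopamine list, at 2.18, was the lowest of all 10.

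RCF 5 was rich in RNA of dopamine neuron markers. Over 23 dopamine neuron markers the mean log2 CPM was 3.04, 5.03, 4.35, 3.66 and 7.13 in RCF libraries 1 to 5, against 5.36, 4.36, 2.18, 4.37 and 3.38 in control libraries 1 to 5. RCF 5 lay highest, control 3 lowest, and the other 8 libraries of the groups were interleaved. Markers of the hypothalamus and mammillary body, which border the VTA in front, averaged 3.83, 1.87, 3.55, 3.92 and 1.88 in RCF libraries 1 to 5, against 2.76, 2.15, 2.39, 1.72 and 2.75 in control libraries 1 to 5, with RCF 1, 3 and 4 above every control. The plot of marker lists by library shows these libraries apart, and values without control 3 are given below beside the lists and genes that it moved most.

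**Figure D1:**
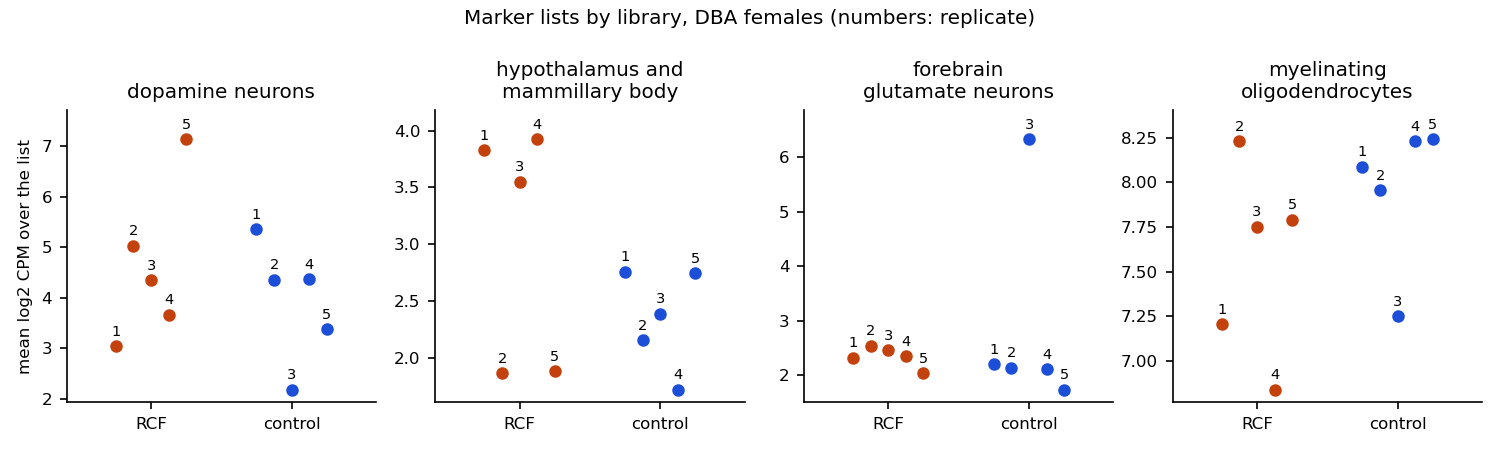
Mean log2 CPM over the marker genes of 4 lists in each DBA female library, RCF left of control, with the replicate number above each point. Control 3 stands at 6.33 on the forebrain list and RCF 5 at 7.13 on the dopamine list, while RCF 1, 3 and 4 lie above all controls on the hypothalamus list.

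Few genes differed between RCF and control DBA females by more than the spread between libraries. Of 18441 genes tested, 3 passed, which is 0.0163%. One rose, Gm48159 (0.00542% of genes tested), and the others, Gm2451 and Mrpl20, fell (0.0108%). A further look at unadjusted p-values under 0.05 gave 2261 genes (12.3%), of which 928 lay above 0 and 1333 below. These were small differences, with a median absolute log2 fold change of 0.34. The median over all genes tested was -0.014, and the median standard error was 0.18. DESeq2 called 43 genes (0.233%), of which 17 rose (0.0922%) and 26 fell (0.141%). With limma voom 2 passed, Gm2451 and Mrpl20, both lower (0.0108%).

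The largest difference was in Gm2451 (ENSMUSG00000106574.1), a processed pseudogene of Gapdh, the glycolytic enzyme, meaning a copy of its spliced messenger RNA inserted into the genome. It lies at chr3:139649379-139650377 on the plus strand of GRCm38, within the gene Stpg2 on the same strand. Gm2451 had 0.402, 0.437, 0.450, 0.440 and 0.378 CPM in RCF libraries 1 to 5, against 20.9, 19.9, 20.8, 19.6 and 17.6 CPM in control libraries 1 to 5. Every RCF library lay near the bottom of the scale and every control near 20, with no overlap between groups (log2 fold change -5.53 ± 0.35, adjusted p = 1.31e-13). In raw counts it had 9 to 13 reads in RCF libraries and 415 to 509 reads in controls. The 35 libraries of the study other than the DBA female controls, the RCF libraries among them, held 3 to 16 reads each, so the 5 DBA female controls alone carried the signal.

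Reads of Gm2451 and Gapdh can be told apart only where the sequences differ. Over its 999 bases Gm2451 matched the Gapdh coding sequence at 99.6% and differed at 4 positions, C31A, T63C, G347A and C591T, with the Gapdh base first and positions counted from the first base of Gm2451, which aligns with the first base of the Gapdh start codon. The stretches around these positions are shown because a read of 75 nt that covers none of them matches both genes. They come from the GENCODE M21 transcripts of GRCm38, 5′ to 3′, with the differing bases in capitals. Gapdh is on the minus strand of chromosome 6, and its lines give the same coding bases.
Gm2451, chr3:139649379-139649471, plus strand: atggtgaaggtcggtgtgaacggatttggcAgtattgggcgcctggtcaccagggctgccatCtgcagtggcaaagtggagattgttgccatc
Gapdh, coding bases 1 to 93: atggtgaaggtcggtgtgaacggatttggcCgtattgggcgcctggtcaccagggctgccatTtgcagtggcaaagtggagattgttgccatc
Gm2451, chr3:139649695-139649755, plus strand: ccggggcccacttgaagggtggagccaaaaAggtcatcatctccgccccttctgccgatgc
Gapdh, coding bases 317 to 377: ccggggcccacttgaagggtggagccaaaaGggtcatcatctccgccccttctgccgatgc
Gm2451, chr3:139649939-139649999, plus strand: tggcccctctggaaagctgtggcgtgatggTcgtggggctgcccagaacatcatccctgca
Gapdh, coding bases 561 to 621: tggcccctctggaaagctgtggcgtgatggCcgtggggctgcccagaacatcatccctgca

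The annotation held 82 other genes with a stretch of at least 75 nt matching Gm2451 at 95% or more, and 68 of them matched over at least 900 nt, so the value of Gm2451 depends on how the authors' counting treated reads with several matches, which is not given in the sources used here. Gapdh itself had 554 to 682 CPM in RCF libraries and 635 to 722 CPM in controls, which overlap (log2 fold change -0.12, adjusted p = 0.494). Gm2451 equalled 0.0578% to 0.0726% of the Gapdh count in RCF libraries, against 2.44% to 3.16% in controls. The long copies other than Gapdh summed to 141 to 155 CPM in RCF libraries and 151 to 164 CPM in controls. One of these, Gm13394, had 108 to 122 CPM in RCF libraries and 119 to 129 CPM in controls of DBA females, and 102 to 137 CPM in DBA males, while in C57 females it had 0.327 to 0.861 CPM. In C57 males it reached 30.6 CPM in 1 control library and at most 0.864 CPM in RCF libraries. Gm13394 was thus high in every DBA library, whereas Gm2451 was high in 1 DBA group.

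Gm48159 (ENSMUSG00000110831.1), annotated as an antisense RNA at chr10:29534717-29614471 on the plus strand, rose. It had 1.57, 0.830, 1.06, 1.12 and 2.52 CPM in RCF libraries 1 to 5, against 0.177, 0.221, 0.178, 0.115 and 0 CPM in control libraries 1 to 5. The groups did not overlap (log2 fold change 3.32 ± 0.59, adjusted p = 0.0175). These are small numbers, 19 to 60 reads in RCF libraries and 0 to 5 reads in controls, and the library without a read (control 5) allows a level of up to 0.127 CPM. The span of Gm48159 overlaps by 1151 nt that of Rspo3, which encodes a secreted enhancer of Wnt signalling and lies on the opposite strand. The libraries keep strand, but the strand setting of the counting is not given in the sources used here, so reads of the overlap cannot be assigned between them. Rspo3 had 3.09 to 5.68 CPM in RCF libraries and 3.84 to 11.4 CPM in controls (log2 fold change -0.50, adjusted p = 0.538). The call was lost without RCF 5 (adjusted p = 0.0765), without control 3 (0.0602), without control 4 (0.0523) and without control 5 (0.112), where the log2 fold change lay between 3.01 and 3.43. It was also lost with limma voom (adjusted p = 0.177) and in the 10 libraries alone (0.121).

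The same gene rose in DBA males, where 3 genes passed (0.0163%, with 1239, or 6.72%, at an unadjusted p under 0.05). There it had 1.03 to 2.43 CPM in RCF libraries and 0.0781 to 0.216 CPM in controls (log2 fold change 3.49, adjusted p = 0.00491). The effect in females minus that in males was -0.17 ± 0.87 on the log2 scale (adjusted p = 0.951), and its standard error is wide enough that a difference of either sign is not shown to be absent. In C57 females it had 1.38 to 3.39 CPM in RCF and 0.368 to 2.27 CPM in control libraries, and in C57 males 0.682 to 5.57 CPM in RCF and 1.04 to 3.50 CPM in control libraries. Gm48159 was therefore near 0 in both DBA control groups and present in every other group.

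Mrpl20 (ENSMUSG00000029066.12), a protein of the large subunit of the mitochondrial ribosome, fell by 23.2%. The gene lies at chr4:155802878-155809975 on the plus strand and had no match to another annotated gene over 300 nt or more at 95% identity, but stretches of at least 75 nt, the length of a read, matched 346 genes. It had 32.9, 35.6, 35.6, 37.8 and 36.4 CPM in RCF libraries 1 to 5, against 45.6, 48.6, 48.5, 41.3 and 48.2 CPM in control libraries 1 to 5. All 5 RCF libraries lay below all 5 controls (log2 fold change -0.38 ± 0.07, adjusted p = 0.0314). The call was lost when any library other than control 4 was left out, with adjusted p between 0.0584 and 0.286, while the log2 fold change stayed between -0.42 and -0.35. It was also lost with median-of-ratios size factors (adjusted p = 0.0541), with no low-count filter (0.284) and in the 10 libraries alone (0.121). In the other groups Mrpl20 had 33.4 to 42.6 CPM in DBA males and 34.0 to 43.3 CPM in C57 females, so 4 of the 5 DBA female controls lay above every library of those groups. The effect in DBA females minus that in DBA males was -0.22 ± 0.10 (adjusted p = 0.408), and minus that in C57 females -0.35 ± 0.10 (adjusted p = 0.158).

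**Figure D2:**
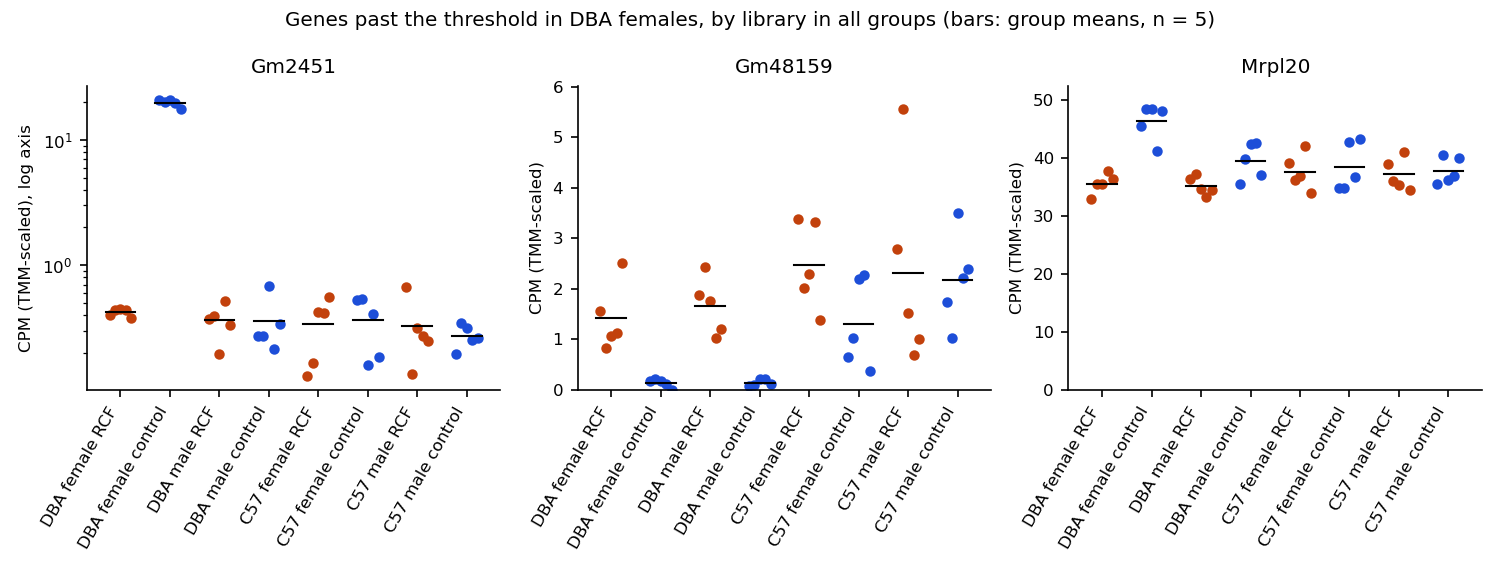
CPM of Gm2451 (log axis), Gm48159 and Mrpl20 in each library of all 8 groups, RCF left of its control, with a bar at each group mean (n = 5). Gm2451 was near 20 CPM in DBA female controls alone, Gm48159 was at most 0.221 CPM in both DBA control groups, and Mrpl20 reached 37.8 CPM in DBA female RCF libraries and started at 41.3 CPM in their controls.

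Among genes that came next by p but did not pass with edgeR, those lower in RCF libraries were Ccdc85b, Rpl5, Ei24, BC003965, Crls1 and Arpc1a. Rpl5, a protein of the large cytosolic ribosomal subunit, had 47.7, 49.5, 53.1, 46.9 and 50.6 CPM in RCF libraries 1 to 5, against 58.1, 58.2, 59.98, 60.3 and 66.9 CPM in control libraries 1 to 5 (log2 fold change -0.29 ± 0.06, adjusted p = 0.0752). Ei24, a protein of the endoplasmic reticulum linked to autophagy, had 79.2 ± 2.09 CPM in RCF and 94.95 ± 3.08 CPM in control libraries (log2 fold change -0.26 ± 0.06, adjusted p = 0.102). In both genes the groups were fully separate. Crls1, the synthase of the mitochondrial lipid cardiolipin, had 19.8 ± 1.38 CPM in RCF and 26.8 ± 4.26 CPM in control libraries (log2 fold change -0.44 ± 0.10, adjusted p = 0.120), and Arpc1a, a subunit of the Arp2/3 complex that branches actin, had 122 ± 6.97 CPM in RCF and 146 ± 9.76 CPM in control libraries (log2 fold change -0.26 ± 0.06, adjusted p = 0.125). Ccdc85b had 61.2 ± 5.71 CPM in RCF and 86.0 ± 12.9 CPM in control libraries (log2 fold change -0.49 ± 0.10, adjusted p = 0.0558), with control 3 the highest library at 108 CPM. Without control 3 Ccdc85b had -0.39 and Crls1 -0.36. DESeq2 called all 6 of these, with adjusted p between 0.00507 and 0.0207.

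Higher in RCF libraries, and likewise not past the edgeR threshold, were Cep350, Usp24, Prrc2c, Kmt2a, Rere, Vps13d and Pole. Kmt2a, which methylates histone H3 at active genes, had 206, 203, 189.8, 221 and 194 CPM in RCF libraries 1 to 5, against 154, 130.3, 144, 151 and 119 CPM in control libraries 1 to 5 (log2 fold change 0.54 ± 0.13, adjusted p = 0.171). Cep350, a protein of the centrosome, had 68.1, 62.1, 61.0, 69.3 and 67.8 CPM in RCF libraries 1 to 5, against 54.1, 46.8, 46.3, 51.0 and 42.5 CPM in control libraries 1 to 5 (log2 fold change 0.45 ± 0.10, adjusted p = 0.171). Neither gene's groups overlapped. Prrc2c, an RNA-binding protein, had 227 ± 12.4 CPM in RCF and 170.2 ± 21.7 CPM in control libraries and Usp24, an enzyme that removes ubiquitin, 111 ± 6.97 CPM in RCF and 88.4 ± 9.22 CPM in control libraries, both with adjusted p = 0.171. Pole, the catalytic subunit of DNA polymerase epsilon, had 3.12 ± 0.664 CPM in RCF and 1.52 ± 0.464 CPM in control libraries (log2 fold change 1.03, adjusted p = 0.195). DESeq2 called all 7, with adjusted p between 0.0277 and 0.0425. Over all genes, every RCF library lay above every control in 322 genes (1.75%) and below in 470 genes (2.55%).

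Leaving out control 3 changed which genes came first but added no call. In that fit 18696 genes were tested and 1 passed (0.00535%), Gm2451, with a log2 fold change of -5.51. None rose in it by edgeR, with 1899 genes at an unadjusted p under 0.05 (10.2%), 1003 above 0 and 896 below. Mrpl20 had -0.36 (adjusted p = 0.118) and Gm48159 3.43 (adjusted p = 0.0602). Nearest to them was Vps13d, a lipid-transfer protein needed to clear mitochondria, with a log2 fold change of 0.42 (adjusted p = 0.0602), against 0.34 with all libraries. Gpatch8 had 0.38 (adjusted p = 0.0602), against 0.28, and Ep300, an acetyltransferase of histones, 0.44 (adjusted p = 0.176), against 0.37. Named by the same fit at adjusted p = 0.176 were also Zfp609, Arhgap21, Ankrd10 and Ino80d, higher by 0.37, 0.36, 0.56 and 0.32 on the log2 scale. Cops4, of the COP9 signalosome, and Ube2d2a, a ubiquitin-conjugating enzyme, had -0.24 and -0.33 at the same adjusted p. Of 18439 genes in both fits, 695 (3.77%) moved by more than 0.5 on the log2 scale and 254 by more than 1. Of 2260 genes with an unadjusted p under 0.05, 1258 kept it in the same direction without control 3.

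The cells and pathways of the punches were described with 42 gene lists. None had a member past the threshold, and 41 had a member that was tested. The 5 pituitary hormone genes were not tested, at no more than 0.214 CPM of total counts. All 23 dopamine neuron markers had log2 fold changes above 0, with a median of 1.22, 0.96 without control 3, and none passed (lowest adjusted p 0.517). Th had 26.3, 82.5, 36.1, 29.1 and 935 CPM in RCF libraries 1 to 5, against 179, 54.9, 3.11, 41.7 and 17.2 CPM in control libraries 1 to 5. Slc6a3, the dopamine transporter, had 1.25, 101, 47.7, 2.81 and 1357 CPM in RCF libraries 1 to 5, against 338, 69.1, 1.55, 45.6 and 3.10 CPM in control libraries 1 to 5. RCF 5 was far above the rest in both genes, control 1 was next, and the groups overlapped. Without RCF 5 the list's median was -0.14, with 8 members above 0 and 15 below, and Th had a log2 fold change of -0.44. Drd2, the dopamine autoreceptor, had 38.2 to 181 CPM in RCF libraries and 9.28 to 68.8 CPM in controls (adjusted p = 0.733). The summed CPM of the list was 1000.0 to 7497 in RCF libraries and 618 to 2324 in controls.

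Maob, which breaks down monoamines and is made largely by astrocytes, had 36.9, 37.3, 42.6, 44.3 and 37.4 CPM in RCF libraries 1 to 5, against 26.9, 27.4, 35.1, 30.8 and 33.3 CPM in control libraries 1 to 5. Each RCF library was above each control, at a log2 fold change of 0.37 (adjusted p = 0.484). Among the 15 tested genes of dopamine synthesis, storage and receptors, 11 lay above 0, with a median of 0.37, and -0.24 without RCF 5.

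Forebrain and thalamus markers followed control 3. Of 12 forebrain markers, 11 lay below 0 with all libraries (median -2.35), and without control 3 there were 8 above 0 and 4 below (median 0.29). The thalamus and habenula list had a median of -0.43, and 0.15 without control 3. Prkcd, a thalamic kinase, read 593 CPM in control 3 and no more than 36.0 CPM elsewhere. The list's summed CPM was 384 to 545 in RCF libraries and 358 to 520 in controls other than control 3, where it was 1073. The hypothalamus list lay above 0 in 14 of 15 members, with a median of 0.58 and 0.44 without control 3, and its summed CPM was 97.5 to 430.0 in RCF libraries and 154 to 281 in controls. Hcrt, the neuropeptide orexin of the lateral hypothalamus, read 65.3, 0.131, 3.11, 49.0 and 4.66 CPM in RCF libraries 1 to 5, against 15.0, 3.62, 0.133, 0.615 and 21.3 CPM in control libraries 1 to 5. RCF 1 and 4 held most of it.

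**Figure D3:**
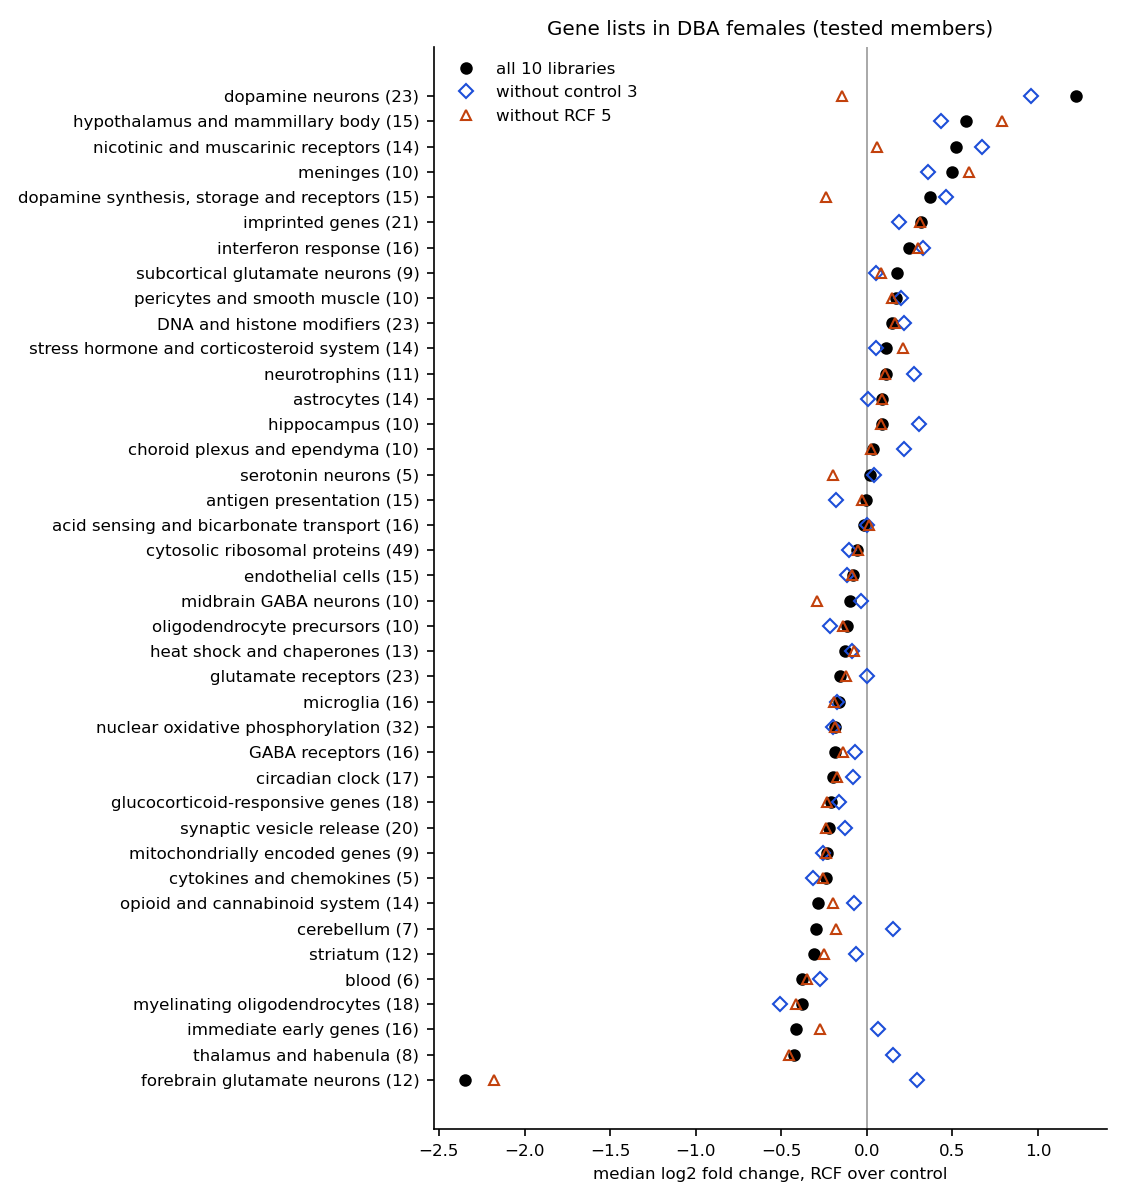
Median log2 fold change (RCF over control) of each gene list with at least 5 tested members, the number in parentheses, for all 10 libraries, without control 3 and without RCF 5. The dopamine list drops from its place at 1.22 to -0.14 without RCF 5, and the forebrain list moves to 0.29 without control 3.

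Genes of the respiratory chain were lower in RCF libraries as a group, each by a small amount. The chain is built from nuclear and mitochondrial genes. All 32 tested nuclear genes of oxidative phosphorylation had log2 fold changes below 0, between -0.35 and -0.012, with a median of -0.18, against -0.014 over all genes tested and 52.3% of those below 0. None passed (lowest adjusted p 0.228), 17 had an unadjusted p under 0.05 (12.3% of all genes), and in 8 every RCF library lay below every control (2.55% of all genes). Cox8a, a subunit of cytochrome c oxidase, had 144, 175, 166, 159.5 and 173 CPM in RCF libraries 1 to 5, against 204, 203, 244, 177 and 204 CPM in control libraries 1 to 5 (log2 fold change -0.34 ± 0.10, adjusted p = 0.228). Cox6c, another subunit, had 90.9, 113, 104, 95.8 and 105 CPM in RCF libraries 1 to 5, against 124, 132, 124, 117 and 141 CPM in control libraries 1 to 5 (log2 fold change -0.32 ± 0.10, adjusted p = 0.237). Uqcrc1, a core protein of complex III, had 203, 207, 217, 211 and 221 CPM in RCF libraries 1 to 5, against 264, 273, 235, 245 and 256 CPM in control libraries 1 to 5 (log2 fold change -0.27 ± 0.09, adjusted p = 0.260). In all 3 the highest RCF library stayed below the lowest control. Sdha, the flavoprotein of complex II, was nearest to 0.

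The summed CPM of the 32 genes was 5303 to 5868 in RCF libraries and 6035 to 6734 in controls, which did not overlap. Sums also did not overlap for genes that modify DNA and histones (1566 to 1660 in RCF libraries, 1347 to 1538 in controls). Nor did they for clock genes (1088 to 1210 in RCF libraries, 1214 to 1816 in controls). By mean log2 CPM, which weights all genes alike, the groups did overlap in the 32 genes, with 6.72, 6.85, 6.91, 6.75 and 6.85 in RCF libraries 1 to 5, against 7.02, 7.05, 6.92, 6.90 and 7.12 in control libraries 1 to 5. All 32 stayed below 0 without control 3 (median -0.20), without RCF 5 (median -0.18) and with the forebrain and dopamine lists as covariates (median -0.18). Over every left-out library the median lay between -0.21 and -0.16. Mitochondrially encoded genes went with them. All 9 tested lay below 0, with a median of -0.23, and mt-Nd2, a subunit of complex I, had 4819.7, 5053, 5385, 3975 and 4538 CPM in RCF libraries 1 to 5, against 5836, 5832, 5789, 5664 and 6968 CPM in control libraries 1 to 5 (log2 fold change -0.34 ± 0.11, adjusted p = 0.243). RCF 4 was lowest and control 5 highest. Another 4 mitochondrial genes, mt-Co2, mt-Co3, mt-Atp6 and mt-Atp8, had at most 5 reads in any of these libraries and were not tested. Of 49 cytosolic ribosomal protein genes, 41 lay below 0 with a median of -0.06, against 45 and -0.10 without control 3. In 1 of the 49, Rpl5, every RCF library lay below every control, against 2.55% of all genes.

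Genes that modify DNA and histones leaned the other way. Of 23 tested, 19 lay above 0, with a median of 0.15, and none passed, while 7 above 0 and 1 below had an unadjusted p under 0.05. Over all genes tested 47.6% lay above 0 and 12.3% had such a p. The mean log2 CPM of the list was 5.57, 5.45, 5.47, 5.45 and 5.42 in RCF libraries 1 to 5, against 5.29, 5.25, 5.38, 5.28 and 5.18 in control libraries 1 to 5. By this mean it was the 1 list of 41 in which every RCF library lay above or below every control. Dnmt3a, a DNA methyltransferase that sets methylation anew, had 108, 92.6, 102, 105 and 97.1 CPM in RCF libraries 1 to 5, against 89.1, 90.9, 74.7, 84.9 and 71.6 CPM in control libraries 1 to 5 (log2 fold change 0.29 ± 0.08, adjusted p = 0.201). Ep300 had 86.2 ± 5.39 CPM in RCF and 66.5 ± 7.18 CPM in control libraries (log2 fold change 0.37 ± 0.10, adjusted p = 0.201). Tet1, which oxidises methylated cytosine, had 17.3 to 24.2 CPM in RCF libraries and 13.1 to 17.7 CPM in controls (log2 fold change 0.44 ± 0.14, adjusted p = 0.251), and Tet2, its relative, 40.6 to 51.6 CPM in RCF libraries and 23.5 to 41.0 CPM in controls (log2 fold change 0.43 ± 0.14, adjusted p = 0.242), each with 1 RCF library just under the highest control. Hdac5, a histone deacetylase, had 195 to 224 CPM in RCF libraries and 215 to 238 CPM in controls (adjusted p = 0.364). Without control 3, 21 of 23 lay above 0 and the median was 0.21.

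**Figure D4:**
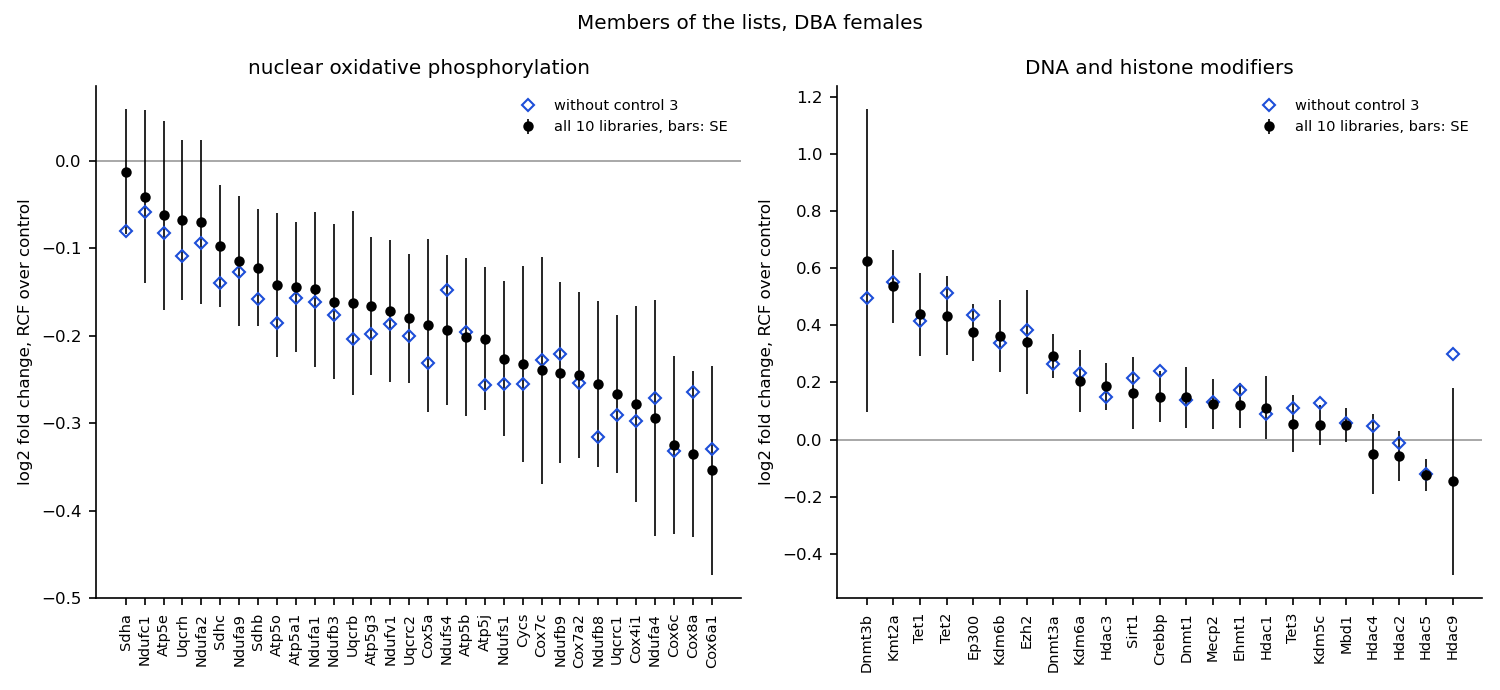
Log2 fold change (RCF over control) of each tested gene of nuclear oxidative phosphorylation and of DNA and histone modification in DBA females, with standard errors, and the value without control 3. All 32 genes of the first list lie below 0 and 19 of 23 of the second above 0, and none passed the threshold.

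These lists differ in transcript length, and length moved with the comparison over all genes. Among 15143 protein-coding genes, split by exon length into 10 bins of equal size, the shortest bin (up to 1782 nt) had a median log2 fold change of -0.090, with 25 genes higher and 182 lower at an unadjusted p under 0.05. The longest bin (from 9850 nt) had a median of 0.058, with 218 higher and 59 lower. Across genes, which are not independent replicates, the Spearman correlation of length and log2 fold change was 0.15, and 0.23 without control 3. The longest bin minus the shortest, in mean log2 CPM per library, was 3.16, 3.07, 3.02, 3.07 and 3.10 in RCF libraries 1 to 5, against 2.99, 2.90, 3.12, 3.04 and 2.76 in controls 1 to 5. Control 3 and control 4 lay within the range of the RCF libraries, and control 5 was lowest. Of the oxidative phosphorylation genes 22 of 32 fell in the 3 shortest bins, and of the modifiers 18 of 23 in the 3 longest. Set against the median of their own bin, 27 of 32 oxidative phosphorylation genes lay below it (median -0.12) and 18 of 23 modifiers above it (median 0.16). Other lists changed more. Of the 49 cytosolic ribosomal protein genes, 28 lay above their bin medians and 20 below (median 0.011). Of the 9 mitochondrially encoded genes 7 lay below (median -0.14), and of the 18 glucocorticoid-responsive genes described below, 14 did (median -0.14). The part of length or RNA quality in these lists was not tested.

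**Figure D5:**
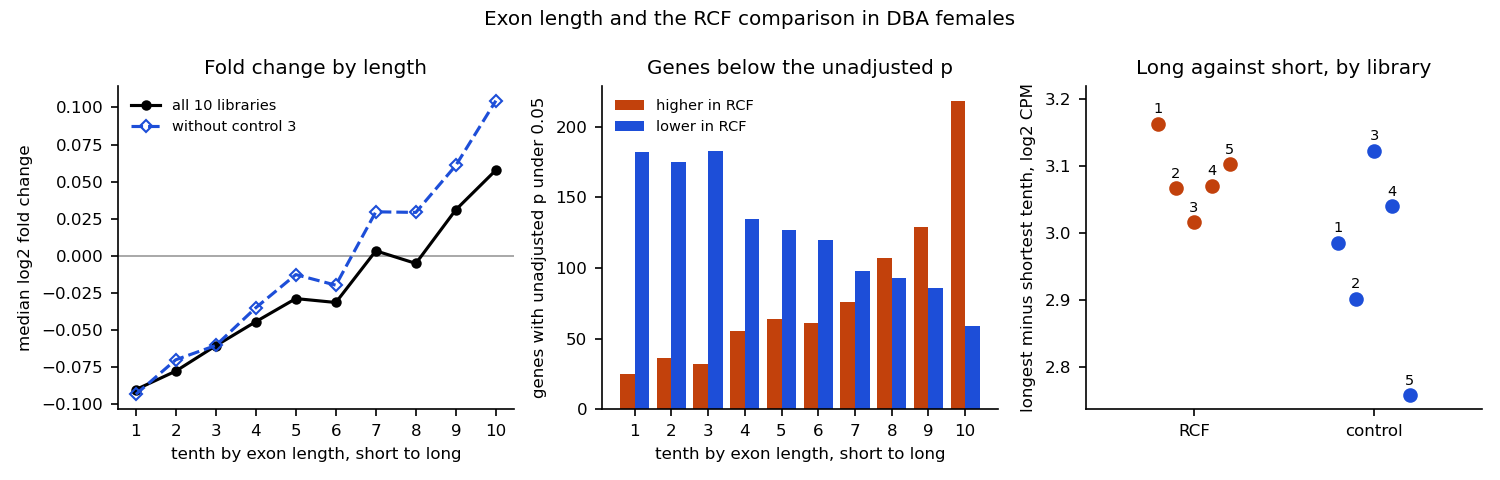
Median log2 fold change by bin of exon length, genes with an unadjusted p under 0.05 in each direction, and the longest minus the shortest bin per library, for protein-coding genes of DBA females. Short genes lay lower and long genes higher in RCF, and control 3 and control 5 are the highest and lowest controls in the last panel.

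No target of the glucocorticoid receptor passed the test. Of 18 tested, 17 lay below 0 (median -0.21), 4 of them with an unadjusted p under 0.05, against 52.3% of all genes below 0 and 12.3% at that p. Without control 3 there were 13 below 0 (median -0.17). Klf9, a transcription factor induced by glucocorticoids, had 91.3, 98.0, 84.1, 69.8 and 93.1 CPM in RCF libraries 1 to 5, against 123, 118, 269.8, 107 and 115 CPM in control libraries 1 to 5 (log2 fold change -0.75 ± 0.21, adjusted p = 0.227). The groups did not overlap, and the value without control 3, the highest library, was -0.40. Fkbp5, which dampens the receptor, had 19.6, 22.2, 19.8, 19.6 and 23.2 CPM in RCF libraries 1 to 5, against 25.1, 28.5, 37.0, 23.7 and 26.2 CPM in control libraries 1 to 5 (log2 fold change -0.43 ± 0.14, adjusted p = 0.243). It too was lower in every RCF library, and the value without control 3 was -0.30. Sgk1, a kinase, had 27.8 to 72.2 CPM in RCF libraries and 62.2 to 108 CPM in controls (log2 fold change -0.76, adjusted p = 0.379). Sgk1 is also made by oligodendrocytes, whose part in its level was not tested.

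Of the stress hormone system, Nr3c1, the glucocorticoid receptor, had 74.2 to 98.2 CPM in RCF libraries and 82.4 to 153 CPM in controls, and 82.4 to 100.02 CPM in controls other than control 3 (log2 fold change -0.23, and -0.05 without it). Hsd11b1, which regenerates active corticosterone inside cells, had 7.20, 8.17, 7.53, 7.14 and 7.60 CPM in RCF libraries 1 to 5, against 11.6, 11.003, 11.3, 12.7 and 14.2 CPM in control libraries 1 to 5. Every RCF library lay below every control (log2 fold change -0.69 ± 0.29, adjusted p = 0.329), and the value without control 3 was -0.71. Crhr1, the receptor of corticotropin-releasing hormone, had 12.9 to 21.4 CPM in RCF libraries and 11.011 to 17.9 CPM in controls (log2 fold change 0.18 ± 0.29, adjusted p = 0.846). Bdnf, a neurotrophin, had 23.6 to 34.2 CPM in RCF libraries and 21.0 to 37.6 CPM in controls (log2 fold change 0.03 ± 0.19, adjusted p = 0.968), and its sign turned when RCF 3, RCF 4, control 1 or control 3 was left out.

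Immediate early genes, which report recent neuronal firing, lay below 0 in 13 of 16 (median -0.41), and above 0 in 10 of 16 without control 3 (median 0.06). Arc read 111 CPM in control 3 and 16.1 to 31.5 CPM in the other 9 libraries. Npas4, a factor induced by calcium entry, had 10.5, 6.42, 12.1, 31.3 and 6.88 CPM in RCF libraries 1 to 5, against 5.75, 5.44, 12.3, 5.23 and 2.29 CPM in control libraries 1 to 5. RCF 4 was highest (log2 fold change 1.12 ± 0.42, adjusted p = 0.290), and the same library held the highest Fos, at 46.2 CPM against 10.4 to 17.9 CPM in the others. Clock genes followed control 3 in part. Dbp, an output factor of the clock, had 86.1 to 108 CPM in RCF libraries and 111 to 169 CPM in controls, with no overlap (log2 fold change -0.36 ± 0.11, adjusted p = 0.232), and -0.24 without control 3. Of the 17 clock genes 14 lay below 0 (median -0.20), and 11 without control 3 (median -0.08).

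No receptor of acetylcholine passed the test, and in 2 of 14 every RCF library lay above every control, against 1.75% of all genes tested. Chrna3 and Chrnb4, neighbouring genes whose products form a nicotinic receptor abundant in the habenula and its target beneath the VTA, were these 2, picked after their values were seen. Chrna3 had 5.75, 5.90, 3.03, 6.26 and 7.01 CPM in RCF libraries 1 to 5, against 2.43, 1.15, 1.20, 0.999 and 2.42 CPM in control libraries 1 to 5 (log2 fold change 1.77 ± 0.74, adjusted p = 0.337). Chrnb4 had 7.24, 5.94, 3.93, 6.64 and 3.95 CPM in RCF libraries 1 to 5, against 1.81, 1.15, 1.15, 1.27 and 2.84 CPM in control libraries 1 to 5 (log2 fold change 1.75 ± 0.70, adjusted p = 0.317). Chrna6, the subunit of dopamine neurons, followed RCF 5 at 192 CPM, and Chrm1, a forebrain muscarinic receptor, followed control 3 at 215 CPM. Of the 14 receptor genes 11 lay above 0, with a median of 0.52, and 0.06 without RCF 5. Oprm1, the mu-opioid receptor, had 2.52 to 6.56 CPM in RCF libraries and 1.73 to 4.80 CPM in controls (log2 fold change 0.77 ± 0.43, adjusted p = 0.478). Genes of the endocannabinoid system, such as Faah and Mgll, which degrade it, were highest in control 3, and the median of 14 opioid and cannabinoid genes was -0.28, and -0.08 without that library.

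Genes of synaptic vesicle release lay below 0 in 18 of 20 (median -0.22, and -0.13 without control 3), against 52.3% of all genes. In 3 of the 20 every RCF library lay below every control, against 2.55% of all genes, and 2 of these follow. Snap25, part of the fusion machinery, had 1700.0, 1686, 1947, 1385 and 1662 CPM in RCF libraries 1 to 5, against 2519, 2287, 2620.2, 2103 and 2089 CPM in control libraries 1 to 5. Rab3a, a vesicle GTPase, had 626, 601, 642, 641 and 658 CPM in RCF libraries 1 to 5, against 757, 825, 777, 679.6 and 724 CPM in control libraries 1 to 5 (log2 fold change -0.25 ± 0.08, adjusted p = 0.260). In both the groups were separate, but Snap25 had the wider error (log2 fold change -0.47 ± 0.26, adjusted p = 0.466). Of 23 glutamate receptor genes 16 lay below 0 (median -0.16), and 12 without control 3 (median -0.002). GABA receptor genes had a median of -0.19, and -0.07 without control 3.

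Imprinted genes, of which 1 parental copy is silent, lay above 0 in 18 of 21 (median 0.32, and 0.19 with 14 above 0 without control 3). Meg3, a maternally expressed long RNA, had 4084, 3728, 4994, 4733 and 5072 CPM in RCF libraries 1 to 5, against 3811, 3281, 3307, 2943 and 1839 CPM in control libraries 1 to 5. RCF 2 lay below control 1, and the other RCF libraries lay above all controls (log2 fold change 0.57 ± 0.21, adjusted p = 0.282). Zim1 had 35.2 to 52.8 CPM in RCF libraries and 16.5 to 32.4 CPM in controls, with no overlap (log2 fold change 0.76 ± 0.31, adjusted p = 0.331), and Snrpn, of the splicing machinery, was lower in every RCF library, at 244 to 255 CPM in RCF libraries and 263 to 303 CPM in controls (log2 fold change -0.21 ± 0.09, adjusted p = 0.364).

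Interferon-response genes lay above 0 in 15 of 16 (median 0.25), 6 of them with an unadjusted p under 0.05, against 47.6% of all genes above 0 and 12.3% at that p. Their mean log2 CPM was 1.33, 1.65, 2.62, 1.76 and 1.61 in RCF libraries 1 to 5, against 1.40, 1.24, 1.24, 1.76 and 1.51 in control libraries 1 to 5. RCF 3 stood highest and the other RCF libraries lay within or near the range of the controls. Irf9, a factor of the interferon signal, had 10.5, 12.6, 19.2, 15.6 and 12.8 CPM in RCF libraries 1 to 5, against 8.57, 10.6, 10.2, 13.2 and 10.7 CPM in control libraries 1 to 5 (log2 fold change 0.41 ± 0.13, adjusted p = 0.243), with RCF 1, 2 and 5 inside the range of the controls. Mx1, an antiviral protein, read 1.31 CPM in RCF 3 and 0.508 CPM in RCF 4, against 0 to 0.175 CPM in the other 8 libraries (log2 fold change 2.39, adjusted p = 0.351). Over the left-out libraries the list's median lay between 0.12 and 0.41. All 5 tested cytokine and chemokine genes lay below 0, and Il1b, Il6 and Tnf had at most 8 reads in any library. Cxcl10, a chemokine induced by interferon and not tested, had 0 to 38 reads in RCF libraries and 0 to 2 reads in controls. The ranges overlap, and the highest count was in RCF 3, which also stood highest on the interferon list.

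Glial and vascular markers described the makeup of the punches. All 18 markers of myelinating oligodendrocytes lay below 0 (median -0.38, and -0.51 without control 3). Their mean log2 CPM was 7.20, 8.23, 7.75, 6.84 and 7.79 in RCF libraries 1 to 5, against 8.09, 7.96, 7.25, 8.23 and 8.24 in control libraries 1 to 5. RCF 1 and 4 and control 3 were the low libraries, and RCF 2 lay among the other controls. Microglia markers lay below 0 in 15 of 16 (median -0.16), of which P2ry12 had 20.1 to 24.7 CPM in RCF libraries and 24.6 to 33.9 CPM in controls (log2 fold change -0.35 ± 0.16, adjusted p = 0.383). Astrocyte markers had a median of 0.09, and 0.005 without control 3, with 9 and 7 of 14 above 0. Among these Sox9, an astrocyte transcription factor, was higher in each RCF library, at 33.7 to 40.6 CPM in RCF libraries and 28.0 to 33.6 CPM in controls (log2 fold change 0.29 ± 0.10, adjusted p = 0.260). Gfap, which marks reactive and superficial astrocytes, read 325 CPM in RCF 2 and 152 CPM in RCF 5, against 10.2 to 54.2 CPM in the other 8 libraries. The 2 vascular lists went opposite ways. Endothelial markers lay below 0 in 13 of 15 (median -0.08), and markers of pericytes and smooth muscle above 0 in all 10 (median 0.17). Meningeal markers lay above 0 in all 10 (median 0.50), at a summed CPM of 49.9 to 107 in RCF libraries and 41.7 to 71.5 in controls. The part of these cell types in the gene lists above was not tested, beyond the fit with forebrain and dopamine lists as covariates, which called 1 gene higher and 3 lower.

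Set against DBA males, the RCF effect of DBA females differed in 1 gene by edgeR, Gm2451 (0.00542% of 18441 genes, with 2170, or 11.8%, at an unadjusted p under 0.05), where limma voom called 1 and DESeq2 19 (0.103%), 14 of them higher (0.0759%) and 5 lower (0.0271%). In Gm2451 the female effect minus the male effect was -5.54 ± 0.49 (adjusted p = 4.70e-09). That gene was high in the DBA female controls alone, as given above. Next came genes that did not pass with edgeR. Tle2, a transcriptional corepressor, had 64.6, 50.8, 78.6, 68.8 and 53.4 CPM in RCF libraries 1 to 5, against 42.8, 41.6, 46.6, 42.1 and 32.5 CPM in control libraries 1 to 5, with no overlap in females. Its female effect minus the male was 1.23 ± 0.25 (adjusted p = 0.204), from 0.62 in females and -0.61 in males. Stx3, a syntaxin of membrane fusion, had 41.9 ± 6.27 CPM in RCF and 27.8 ± 4.08 CPM in control libraries, and a difference of 1.05 ± 0.25 (adjusted p = 0.292). Rtel1, a helicase of telomeres, had a difference of 0.93 ± 0.22, and Gpat2, an acyltransferase of glycerolipid synthesis, 2.77 ± 0.64, with adjusted p = 0.292 and 0.266. Mx1, which did not pass with edgeR, had a difference of 8.37 by DESeq2 (adjusted p = 0.00658). Its levels in females were low, as given above. The female side of this difference rested on RCF 3 and RCF 4, with the other female libraries near 0 CPM, so its size is uncertain. Ncdn, a neuronal protein, had 829, 955, 893, 899.8 and 921 CPM in RCF libraries 1 to 5, against 1111, 1229, 1742, 1104 and 1017 CPM in control libraries 1 to 5. It was lower in all RCF females, with control 3 highest, and its difference was -0.80 ± 0.18 (adjusted p = 0.248). Usp40, Tmco4, Btbd3 and Lrp12 had differences of 0.63 ± 0.16, -1.21 ± 0.28, -0.83 ± 0.21 and -0.58 ± 0.15, none past the threshold. For Th the difference was 5.57 ± 2.21 (adjusted p = 0.359), with RCF 5 among the libraries behind it.

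Set against C57 females, 1 gene again differed by edgeR, Gm2451 (0.00542%, with 2959, or 16%, at an unadjusted p under 0.05), at -5.42 ± 0.50 (adjusted p = 1.18e-08), where limma voom called 1 and DESeq2 80 (0.434%), 39 of them higher (0.211%) and 41 lower (0.222%). Of genes that did not pass with edgeR, Kcnj11, the pore of the ATP-sensitive potassium channel, had 18.8, 20.7, 20.4, 19.9 and 19.4 CPM in RCF libraries 1 to 5, against 26.9, 30.2, 34.1, 24.5 and 28.1 CPM in control libraries 1 to 5. All RCF females lay below all controls, and the effect minus that in C57 females was -0.95 ± 0.20 (adjusted p = 0.145), from -0.53 in DBA and 0.41 in C57 females. Col4a2, a basement membrane collagen, had a difference of 1.40 ± 0.33, and Mmp14, a matrix metalloproteinase, 0.94 ± 0.22, both at adjusted p = 0.145. Cenpb, a centromere protein, had -0.98 ± 0.22, and Fkbp5 had -0.74 ± 0.20 (adjusted p = 0.149), from -0.43 in DBA and 0.32 in C57 females. Actn2, Zik1, Zfp28, Csmd3 and Mfsd14b had differences of 2.69 ± 0.61, 0.91 ± 0.21, 0.83 ± 0.19, 0.99 ± 0.23 and -0.47 ± 0.11, and none passed. Slc6a5, the glycine transporter of hindbrain neurons, had the widest difference, -5.94 ± 1.23 (adjusted p = 0.145), from 0.0409 to 0.756 CPM in RCF libraries and 0.575 to 1.81 CPM in controls of DBA females. In C57 females Slc6a5 ran from 1.13 to 56.8 CPM in RCF and from 0.123 to 0.869 CPM in control libraries.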

How the data were processed

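Per the labels' protocols, RNA from frozen VTA punches was extracted with a Norgen column kit and sequenced as single 75 nt reads from strand-keeping libraries (Tecan Universal Plus mRNA-Seq). The submitters' processing notes name bcl2fastq 2.20, cutadapt 1.11, FastQC and the build GRCm38. How reads were aligned and counted, and with which strand setting, is not given in the sources. The authors deposited raw read counts per gene for 55471 genes.

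All 40 libraries entered 1 edgeR 4.0.16 model (R 4.3.3, robust quasi-likelihood, TMM, filterByExpr, a mean per group). It was run on simulated counts with known changes and, unlike these data, no outlying library. The changed genes were drawn only from those averaging over 1 CPM, so the rates of recovery do not cover genes with fewer reads. There it recovered 55.2% of 1.5-fold, 77.6% of 2-fold and 93.9% of 4-fold changes, with 8 false calls among 18006 unchanged genes. Differences between RCF effects were contrasts of the same model. Alternatives were DESeq2 1.42.0, limma 3.58.1 voom, median-of-ratios size factors, no filter, the compared libraries alone, a replicate block, marker covariates and leaving out each library. Copies were sought with blastn 2.17.0. None of the 20 pairs of libraries within the DBA female RCF and control groups was a duplicate.

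The comparison and the gene lists were chosen with earlier results of these data known. Genes were named by smallest p: those past the threshold, filled to 8 per direction, likewise without control 3, 6 per direction of each difference, and fixed dopamine, stress and sex genes. List members named beyond these were chosen after their values were seen. List means use log2 CPM with a prior count of 2, and the limit for a count of 0 (3 counts) covers counting error only.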

Additional observations from a re-analysis of the deposited data

Results flagged for a closer look

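Each value below was singled out because 1 library lay far from the other 4 of its group, by Dixon's criterion (gap over range above 0.71). Of 194 groups examined 26 met it, and 11 of the 26 were in control 3. For independent groups chance gives 1 in 20 (9.7). These groups share genes and libraries, control 3 was known to stand apart, and some genes were named by the fit without it. The 26 can therefore not be weighed against the 9.7.

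In control 3 these were the mean log2 CPM of forebrain glutamate neurons (6.33), hippocampus (4.78), striatum (4.39), thalamus and habenula (5.44), immediate early genes (4.67), glutamate receptors (6.52) and circadian clock (6.06), each high, and of myelinating oligodendrocytes (7.25), low. Arhgap21 had 203 CPM there, Ino80d, of a chromatin remodelling complex, 36.3 CPM, and Nr3c1 153 CPM.

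In RCF 5 the dopamine genes stood apart, with 935 CPM for Th, 1357 CPM for Slc6a3, 583 CPM for Slc18a2 and 181 CPM for Drd2. In control 1 Slc6a3 had 338 CPM and Slc18a2 132 CPM, and the pericyte list was low at 3.45. In RCF 4 Fos had 46.2 CPM. RCF 3 had the lowest hindbrain value, -2.98, a list with 1 tested gene (Slc6a5), and control 2 the highest of the controls, 0.92, where Slc6a5 had 1.81 CPM and Zfp28 13.4 CPM. Control 5 stood apart in Rpl5 (66.9 CPM) and in mitochondrially encoded genes (9.92), and control 4 in Oprm1 (4.80 CPM).

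In Gm2451 the difference between RCF and control libraries itself differed between groups, and the DBA female controls alone were high. The log2 fold change in DBA females minus that in DBA males was -5.54, and minus that in C57 females -5.42. What set these controls apart was not tested.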

How the results depend on the processing

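The number of genes that rose was 17 by DESeq2 and 0 by limma voom, with the replicate block and in the fit of the compared libraries alone, against 1 in the model used. The number that fell was 26 by DESeq2 and 1 with median-of-ratios size factors, with no low-count filter, with the replicate block and in the compared libraries alone, against 2. Leaving out 1 library gave 0 to 1 genes that rose and 1 to 4 that fell. The difference from DBA males held 19 genes by DESeq2 and 2 with no filter, and that from C57 females 80 genes by DESeq2, each against 1, and 1 gene in every fit that left out a library. Gm2451 passed under every setting run, with adjusted p between 8.47e-84 and 8.63e-07. Mrpl20 did not pass with the replicate block (adjusted p = 0.260), and neither did Gm48159 (adjusted p = 0.260). Same-numbered libraries did not deviate together (r between -0.082 and 0.0021 over 5 pairs, and 0 RCF libraries correlated best with their own number), so the numbers are not taken as pairs.

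Values that turned sign were all of genes that did not pass. With marker covariates Slc6a3 had -1.07 and Slc18a2 -0.10. Leaving out RCF 5 gave the lowest values of Th, Slc6a3, Slc18a2 and Drd2, whose ranges over the left-out libraries were -0.44 to 2.93, -1.26 to 3.35, -0.25 to 2.42 and -0.0046 to 1.03. Bdnf ran between -0.063 and 0.14, and was below 0 without RCF 3, RCF 4, control 1 or control 3. Of the 287 list medians under settings other than leaving out a library, 4 moved by more than the spread between libraries, and 3 of these were the forebrain list. With 5 libraries a group and a median standard error of 0.18 on the log2 scale, small changes can be missed, most of all in genes with few reads.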
